A study of Homo sapiens with 101 samples.

Results

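HT1080 cells, a human fibrosarcoma line, were treated with a compound labelled GAD at 2 mM and compared with cells labelled DMSO pooled, named DMSO_pooled here. All 6 samples titled with GAD at 2 mM and all 6 titled DMSO pooled were taken, which are 12 of the 101 samples of the study. The labels do not spell out GAD and give no structure for it. Each of the 11 compounds of the study was used at 1 dose, chosen to raise total p53 by 1.5-fold, so GAD is described here at that dose alone. Stocks were made in DMSO, the medium held 0.1% vehicle, and compounds were added 24 h after plating, while the exposure time is not given. What was pooled is not stated, and the labels do not name DMSO_pooled as the control of GAD, so that tie was inferred: each of the other 5 controls of the study is named for 1 other compound. They also do not say that replicates are separate cultures, so each p-value rests on a spread among arrays that may be technical. For some results GAD was also set against the 5 other compounds with no control named for them. These are MMC at 0.1 µM (5 samples), NCS at 10 ng/ml (6 samples), H2O2 at 100 µM (5 samples), ENU at 2 mM (6 samples) and tBHQ at 200 µM (6 samples). The labels do not say that these compounds share an array set with GAD and DMSO_pooled, so that grouping was inferred too.

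Cells meet chemical damage with several transcription programmes that can be read from their target genes. NRF2 is released from KEAP1 when reactive compounds or oxidants modify that sensor and switches on glutathione, thioredoxin and detoxifying enzymes. ATF4 is translated when eIF2alpha kinases slow protein synthesis and drives genes of amino acid supply. HSF1 drives chaperone genes when proteins misfold. The p53 protein drives CDKN1A and other genes after DNA damage, and its target p21 lets RB family complexes shut off mitotic genes, many of which carry a promoter element called CHR.

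Levels were log2 probe set values on Affymetrix arrays, with 1 probe set for each of 11496 genes that reached a mean of 4 in at least 1 group of the study. A gene was called changed where the limma test gave an adjusted p under 0.05 after Benjamini-Hochberg adjustment and the difference was at least 1.5-fold. A gene read by several probe sets is given by the one brightest on average in the study. The average over all its probe sets, dim ones included, is given too where it ended the call or moved a printed log2 difference by over 1.5 times. Values under a log2 level of 4 were treated as close to background, and a fold against a group mean under 4 is given as a lower bound against that level. Such a bound holds for the probe set used, and other probe sets of the gene may give less. Each array correlated with the mean of the others of its group at r from 0.988 to 0.998 over the tested genes. The library labelled DMSO_pooled replicate 1 lay farthest from its group, with an SD of 0.355 from the mean of the others, against 0.167 to 0.290 in the GAD arrays. The mesenchymal markers fitted the fibrosarcoma label, with 10 of 12 at a mean of 4 or more in either group, and VIM, an intermediate filament of mesenchymal cells, stood at 12.81 in GAD-treated cells and 13.05 in DMSO_pooled cells. None of 12 epithelial markers reached 4, and of 10 blood markers only CD68 did. Of 8 endothelial markers TIE1 alone reached 4, at 5.48 in GAD-treated cells and 4.34 in DMSO_pooled cells, and was called higher by 1.14 ± 0.23, and of 8 neural markers SNAP25 alone did, in DMSO_pooled cells. The part of these cell types in the results was not tested. The summed level of the mesenchymal markers was 84.1 to 89.6 in GAD-treated cells and 91.7 to 97.1 in DMSO_pooled cells, and 6 of 11 tested markers were called lower. In bulk RNA, fewer cells that express a gene and less RNA of it per cell cannot be told apart.

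GAD changed a broad part of the transcriptome. Of 11496 tested genes 3011 were called (26.2%), of which 1281 were higher (11.1%) and 1730 lower (15%) in GAD-treated cells. The shares of 11.1% and 15% are the background for the list counts below. In 4502 genes (39.2%) every GAD array lay on 1 side of every DMSO_pooled array, and this held for 2650 of the called genes. Measured group means differed by at least 2-fold in 297 genes called higher and 861 called lower. Falls outnumbered rises among the largest changes too, with 32 genes lower and 10 higher by 8-fold or more in measured means. The median difference over all tested genes was 0.03 on the log2 scale.

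**Figure D1:**
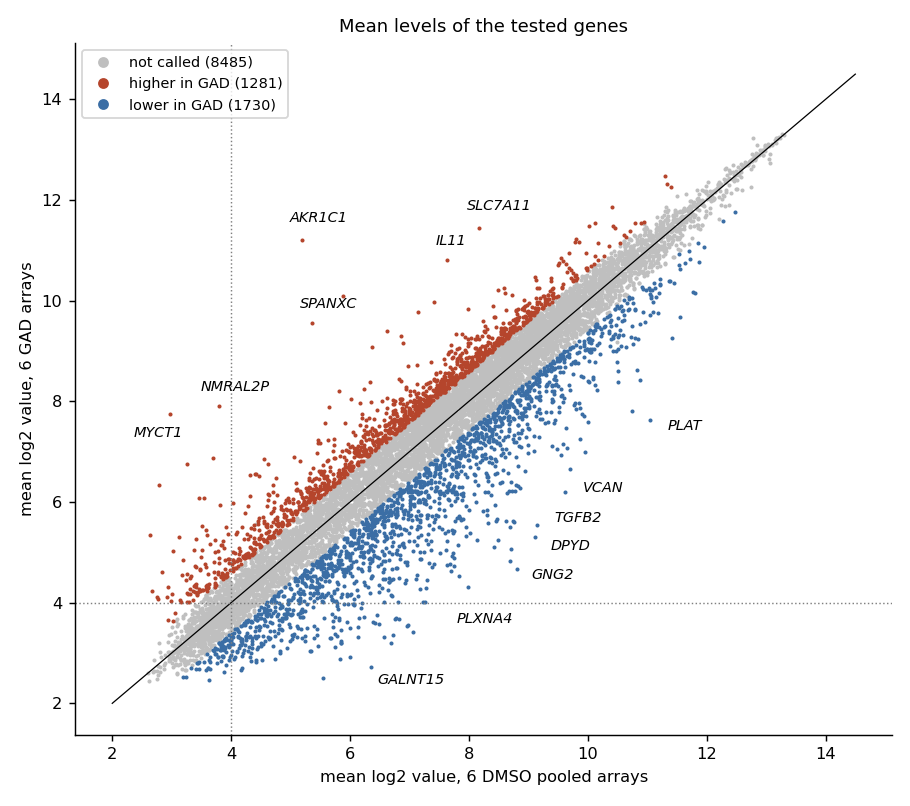
Mean log2 level of each tested gene in the 6 GAD arrays (vertical axis) against the 6 DMSO_pooled arrays (horizontal axis), coloured by call. The cloud of 1730 genes called lower reaches farther from the diagonal than that of 1281 called higher, and AKR1C1 stands out above.

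The programme with the largest share of rising genes was that of NRF2. Of 32 tested NRF2 targets 21 were called higher and 1 lower, against 11.1% and 15% of all tested genes, and their median difference was 0.96 against 0.03. The mean level over the list was 9.45 to 9.66 in GAD-treated cells and 8.17 to 8.36 in DMSO_pooled cells, so the groups were clear of each other. AKR1C1, an aldo-keto reductase that reduces reactive carbonyls and steroids, showed the largest rise of any tested gene. Its lowest, median and highest log2 values were 10.82, 11.27 and 11.45 in GAD-treated cells and 4.92, 5.17 and 5.45 in DMSO_pooled cells. The 6 GAD arrays thus lay far above all 6 DMSO_pooled arrays, with a difference of 6.02 ± 0.12 (SE, adjusted p = 8.3e-13), or 64.9-fold. Its paralogs rose as well, AKR1C2 by 4.21 ± 0.14 and AKR1C3 by 2.57 ± 0.17. The 3 genes are near-identical in sequence, other AKR1C1 probe sets above 4 gave differences down to 3.85, the average over its probe sets was 3.11, and how much of each signal is shared was not tested. HMOX1, which degrades haem, had lowest, median and highest values of 9.16, 9.77 and 10.27 in GAD-treated cells and 6.75, 7.19 and 7.36 in DMSO_pooled cells, and it rose by 2.63 ± 0.16 (adjusted p = 4.1e-08) with no overlap. NQO1, a quinone reductase, rose by 1.38 ± 0.07, and TXNRD1, the thioredoxin reductase, by 0.98 ± 0.07. The TXNRD1 call was lost with its probe sets averaged, at 0.56. NMRAL2P, a pseudogene known as an NRF2 target, lay at 7.56, 7.91 and 8.14 in GAD-treated cells and 3.68, 3.81 and 3.85 in DMSO_pooled cells. Its DMSO_pooled mean was under 4, so it was at least 14.9-fold higher in GAD-treated cells. CBR3, a carbonyl reductase, was the NRF2 target called lower, at -1.03 ± 0.15.

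Genes that make and use glutathione rose in part, led by the cystine importer. SLC7A11, the light chain of the cystine importer, had lowest, median and highest values of 11.19, 11.46 and 11.68 in GAD-treated cells and 7.63, 8.26 and 8.70 in DMSO_pooled cells. All GAD arrays were above all DMSO_pooled arrays, with a difference of 3.27 ± 0.18 (adjusted p = 2.8e-08). SLC3A2, its heavy chain, rose by 1.71 ± 0.15. The enzyme that joins glutamate to cysteine rose in both subunits, GCLC, the catalytic one, by 1.84 ± 0.10 and GCLM, the modifier, by 1.26 ± 0.11. Over the glutathione list 8 of 24 tested genes were higher and 2 lower, with a median difference of 0.29. MGST3, a microsomal glutathione transferase, fell by 0.85 on the log2 scale, a call lost with its probe sets averaged, at -0.50. Averaged probe sets gave 10 higher and 0 lower of 23 in this list. AHR target genes, which share NQO1 with NRF2, gave 1 higher and 2 lower of 7, and the receptor gene AHR itself fell by 0.91.

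**Figure D2:**
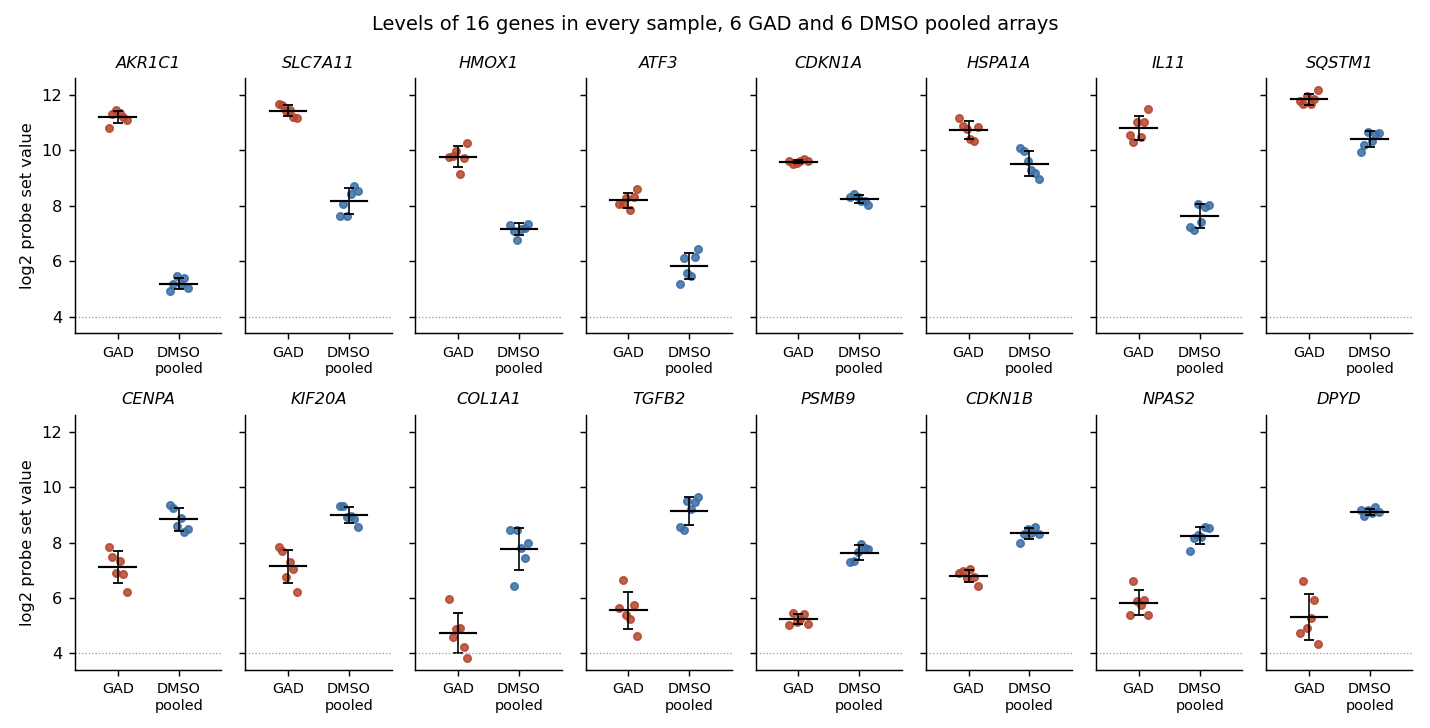
Log2 level of 16 genes in each of the 6 GAD arrays and the 6 DMSO_pooled arrays, one point an array, with the group mean as a line, the SD as bars and a dotted line at the level of 4. The 8 genes of the upper row are higher in GAD-treated cells and the 8 of the lower row are lower, and the GAD points of COL1A1, TGFB2 and DPYD spread more widely than those of AKR1C1 or CDKN1A.

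The antioxidant response element bound by NRF2 and its small MAF partners was looked for as the letters TGACNNNGC on both strands, in windows of 250 bases before to 50 after the RefSeq start of a gene. These windows were found for 9494 of 11496 tested genes, and 15.2% of them held the letters. Among the NRF2 targets 6 of 24 did, of which 4 were called higher, while 13 of 18 without the letters in this window were also called higher. The promoters of GCLM and PGD, an enzyme of the pentose phosphate pathway that makes NADPH, are shown as examples of rising genes that hold it. PGD rose by 1.01 ± 0.07, but its probe sets averaged gave 0.30 and no call. Here and below the 250 bases before the start are given 5′ to 3′ from RefSeq GRCh38.p14 on the strand of the gene, and capitals mark the matched letters.
GCLM promoter, chr1:93909431-93909680, - strand: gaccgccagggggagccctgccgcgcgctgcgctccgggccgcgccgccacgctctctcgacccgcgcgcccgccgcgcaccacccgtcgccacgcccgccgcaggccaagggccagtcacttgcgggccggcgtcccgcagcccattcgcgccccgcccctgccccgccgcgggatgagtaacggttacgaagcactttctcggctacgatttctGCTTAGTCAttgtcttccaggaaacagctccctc
PGD promoter, chr1:10398814-10399063, + strand: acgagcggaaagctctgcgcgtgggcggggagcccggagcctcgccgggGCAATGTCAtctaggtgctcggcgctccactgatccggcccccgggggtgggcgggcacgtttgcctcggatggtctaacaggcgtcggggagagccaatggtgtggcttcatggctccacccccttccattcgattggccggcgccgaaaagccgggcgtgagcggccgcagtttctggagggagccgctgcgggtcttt

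ATF4 target genes were the second group with a majority of rising members. Of 35 tested genes 19 were called higher and 2 lower, with a median difference of 0.68. The list mean was 8.37 to 8.49 in GAD-treated cells and 7.37 to 7.95 in DMSO_pooled cells, so each GAD array was above each DMSO_pooled array. ATF3, a stress-induced transcription factor, had lowest, median and highest values of 7.84, 8.18 and 8.62 in GAD-treated cells and 5.19, 5.85 and 6.42 in DMSO_pooled cells and rose by 2.38 ± 0.20 (adjusted p = 4.3e-07). ALDH1L2, a mitochondrial folate enzyme, rose by 2.16 ± 0.26. With probe sets averaged ATF3 stood at 1.44 and ALDH1L2 at 0.93, both still called. NUPR1, a small stress-induced chromatin protein, was at 5.57, 5.84 and 6.92 in GAD-treated cells and 2.70, 3.51 and 3.92 in DMSO_pooled cells. Its DMSO_pooled mean was under 4, so it was at least 4.22-fold higher in GAD-treated cells. TRIB3, a pseudokinase that restrains ATF4, rose by 1.07 ± 0.14. The transcript of ATF4 itself rose by 0.68 ± 0.08, and DDIT3, which encodes CHOP, rose by 0.99 ± 0.24 with 1 or more GAD arrays inside the DMSO_pooled range. SESN2, a p53 and ATF4 target that restrains mTORC1, rose by 1.03 ± 0.10. VLDLR, a lipoprotein receptor, and DDIT4, an mTORC1 inhibitor, are on the ATF4 list and fell, by 1.32 and 0.71 on the log2 scale. Few charging enzymes for tRNA were called, with 2 higher and 1 lower of 20 (10% and 5%), against 11.1% and 15% of all tested genes. At an unadjusted limma p under 0.05, 10 were higher and 4 lower, against 4012 and 3516 of all 11496 tested genes. Their mean level was 10.10 to 10.17 in GAD-treated cells and 9.87 to 10.11 in DMSO_pooled cells, so the groups overlapped narrowly. WARS1, which charges tryptophan, rose by 1.24 ± 0.16 and SARS1, which charges serine, by 0.84 ± 0.10, whereas AARS1, which charges alanine, fell by 0.85.

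The C/EBP-ATF response element was looked for as TGATGNAA on both strands and was present in 1.78% of all 9494 windows. Among the ATF4 targets 5 of 29 windows held it, and 4 of these genes were called higher, while 11 of 24 without it were called higher and 2 lower. ATF3, at the first start RefSeq lists, and ASNS, the asparagine synthetase, are shown as the rising targets with a match. ASNS rose by 1.42 ± 0.25, or by 0.78 over its averaged probe sets.
ATF3 promoter, chr1:212565157-212565406, + strand: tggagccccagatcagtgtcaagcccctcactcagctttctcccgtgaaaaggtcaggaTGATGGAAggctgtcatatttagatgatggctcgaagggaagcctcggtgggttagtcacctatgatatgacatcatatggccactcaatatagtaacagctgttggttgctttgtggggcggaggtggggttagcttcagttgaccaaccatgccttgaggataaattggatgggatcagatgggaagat
ASNS promoter, chr7:97872409-97872658, - strand: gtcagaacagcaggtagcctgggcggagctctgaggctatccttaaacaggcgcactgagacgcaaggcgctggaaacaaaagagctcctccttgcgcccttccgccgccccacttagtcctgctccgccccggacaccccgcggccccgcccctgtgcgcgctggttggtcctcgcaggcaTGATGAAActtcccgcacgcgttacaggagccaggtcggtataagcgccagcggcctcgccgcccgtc

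Chaperone genes of the heat shock response rose in part, and those of the endoplasmic reticulum did not. Of 24 tested heat shock genes 8 were called higher by limma and 0 lower, with a median difference of 0.51. Without the fold minimum and the adjustment, at an unadjusted p under 0.05, 21 were higher and 0 lower. In the same limma fit 4012 of all 11496 tested genes were higher and 3516 lower at that p. Counts at that p, here and below, stand against this background. The mean level of the heat shock genes was 8.89 to 9.19 in GAD-treated cells and 8.29 to 8.64 in DMSO_pooled cells. HSPA1A, an inducible HSP70, had lowest, median and highest values of 10.33, 10.83 and 11.18 in GAD-treated cells and 8.96, 9.45 and 10.11 in DMSO_pooled cells and rose by 1.22 ± 0.20 (adjusted p = 0.00015). Its probe set may also read the near-identical HSPA1B. HSPA6, an HSP70 made almost only under stress, ranged more widely, at 3.75, 5.26 and 7.05 in GAD-treated cells and 3.34, 3.37 and 3.55 in DMSO_pooled cells. The DMSO_pooled mean was under 4, and HSPA6 was at least 2.4-fold higher in GAD-treated cells. HSPB8, a small heat shock protein, rose by 1.64 ± 0.22, the HSP90 co-chaperone FKBP4 by 1.06 ± 0.09, and the collagen chaperone SERPINH1 by 1.01 ± 0.08. Averaged probe sets gave 0.93 for HSPB8 and 0.68 for FKBP4, both called. Of 25 genes of endoplasmic reticulum stress limma called 0 higher and 1 lower, with a median difference of 0.05. At an unadjusted p under 0.05 there were 8 higher and 8 lower, near the shares of all tested genes. HSPA5, the BiP chaperone, stood at 11.54, 11.65 and 11.77 in GAD-treated cells and 11.68, 11.86 and 12.04 in DMSO_pooled cells, a difference of -0.20 ± 0.07 (adjusted p = 0.024) that is under 1.5-fold, and SDF2L1, a BiP cofactor, fell by 1.07. Proteasome subunits gave 0 calls of 29 by limma, but 21 were higher and 0 lower at an unadjusted p under 0.05, each by less than 1.5-fold, with a median difference of 0.20. With averaged probe sets the proteasome list gave 2 higher and 0 lower of 29. Of 7 metallothionein and zinc genes 3 were higher, among them MT1X, a metal-binding metallothionein, by 0.74 ± 0.09, and MTF1, the zinc-sensing factor, by 0.83 ± 0.10. Metallothionein genes are close paralogs whose signals may be shared.

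The heat shock element was looked for on both strands as GAA, TTC and GAA, each 2 bases apart, and was present in 0.379% of all windows and in 6 of 21 heat shock genes, of which 2 were called higher, while 5 of 15 without it were. The window of HSPA6 is shown as the rising gene with the match.
HSPA6 promoter, chr1:161524290-161524539, + strand: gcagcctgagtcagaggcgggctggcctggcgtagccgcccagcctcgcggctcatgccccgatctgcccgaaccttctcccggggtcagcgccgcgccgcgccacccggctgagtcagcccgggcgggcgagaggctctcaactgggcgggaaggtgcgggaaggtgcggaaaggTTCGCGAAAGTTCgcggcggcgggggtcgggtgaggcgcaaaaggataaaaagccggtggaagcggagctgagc
The endoplasmic reticulum stress element, searched by its name ERSE as a CCAAT and a CCACG a fixed distance apart, was in 0.126% of all windows and in 6 of 23 windows of the endoplasmic reticulum list, of which 0 belonged to a called gene.

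Genes of autophagy and its receptors moved in the same direction as the NRF2 targets in 10 of 32 members, with 2 lower. SQSTM1, the p62 receptor that also binds KEAP1, had values of 11.67, 11.82 and 12.19 in GAD-treated cells and 9.94, 10.48 and 10.66 in DMSO_pooled cells and rose by 1.45 ± 0.13. Its probe sets above 4 ranged in difference from -0.24 to 2.10, and the average was 0.71. CTSL, a lysosomal protease, rose by 1.28 ± 0.07, ATG4A, which processes ATG8 proteins, by 0.85 ± 0.13 and ATG12, a conjugation factor, by 0.78 ± 0.08. TFEB, a factor that drives lysosomal genes, fell by 0.78 and ATG7, the conjugation enzyme, by 0.83. Both falls, which are the only ones of the list, lost their call with averaged probe sets, TFEB at -0.56 and ATG7 at -0.45.

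**Figure D3:**
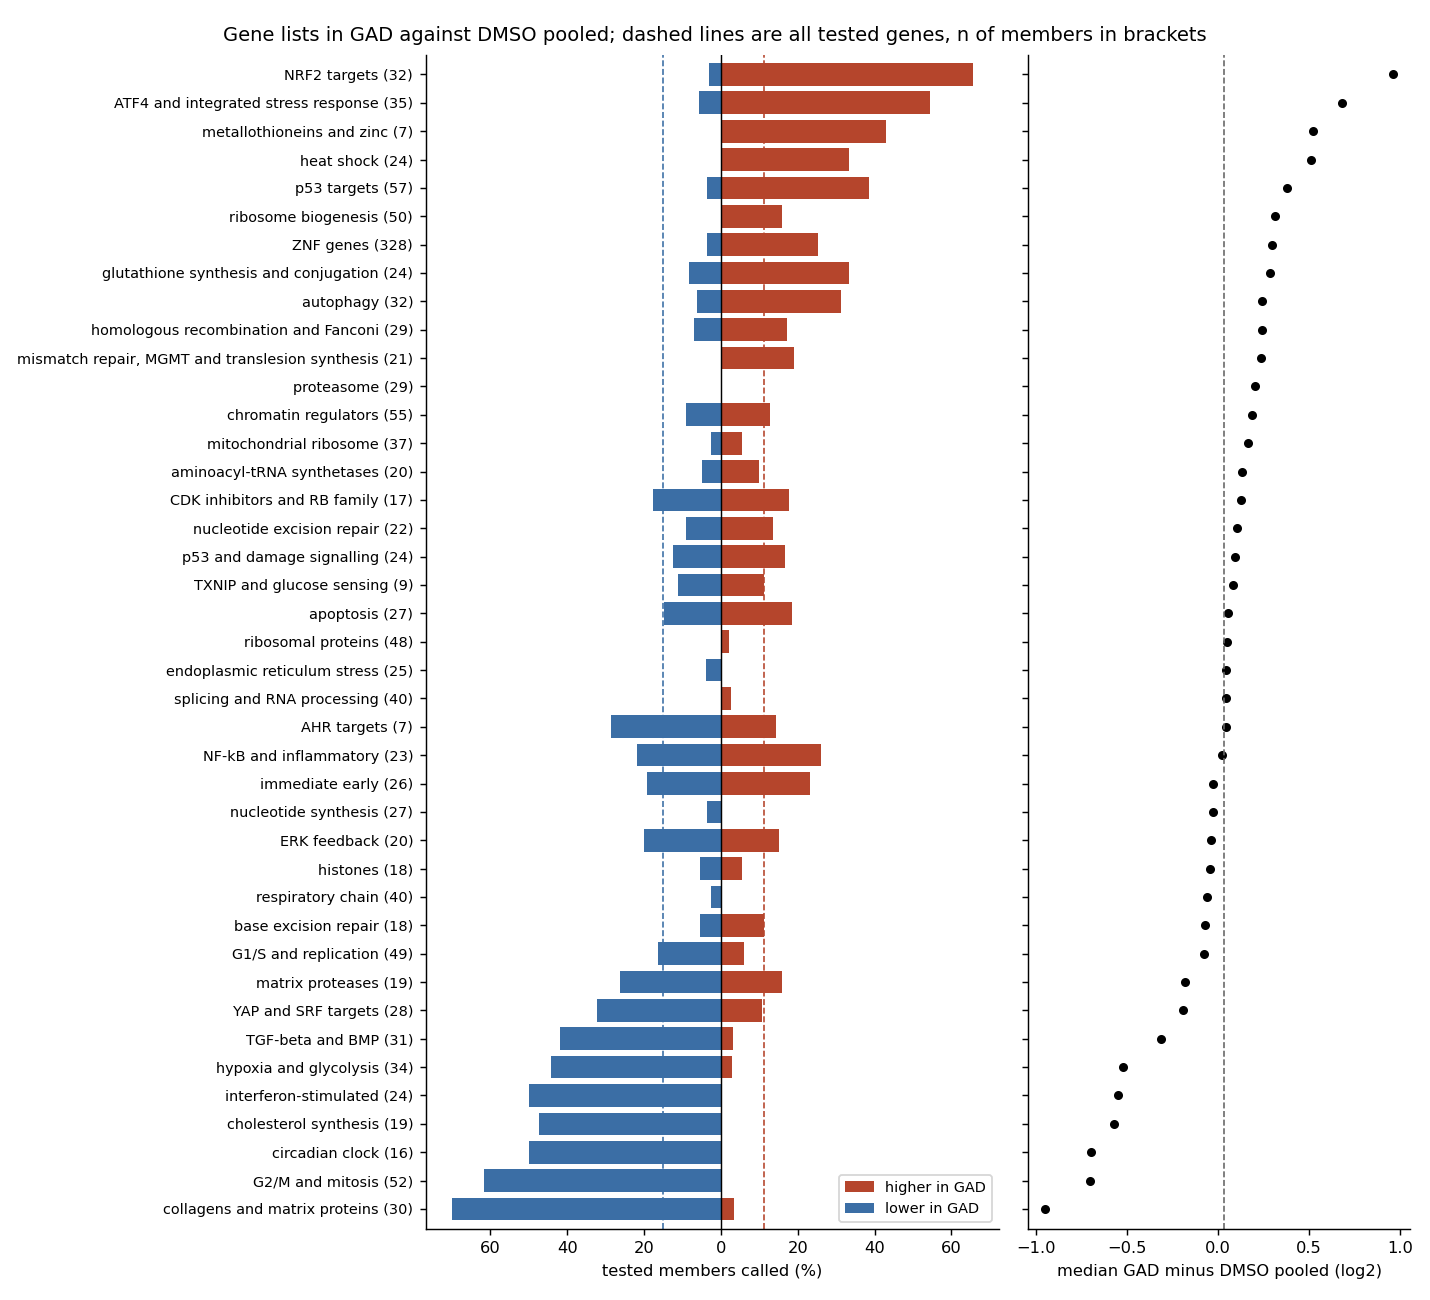
For each gene list, the share of tested members called higher or lower in GAD-treated cells against DMSO_pooled cells (left, in percent) and the median difference (right, log2). Dashed lines mark all tested genes, at 11.1% higher, 15% lower and a median of 0.03, and the NRF2, ATF4 and G2/M lists and the collagens lie farthest from them among lists of 20 or more genes.

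The p53 targets rose in part. Of 57 tested targets 22 were called higher and 2 lower, with a median difference of 0.38. Their mean level was 8.49 to 8.58 in GAD-treated cells and 8.02 to 8.26 in DMSO_pooled cells. CDKN1A, the p21 inhibitor of cyclin-dependent kinases, had lowest, median and highest values of 9.52, 9.61 and 9.70 in GAD-treated cells and 8.02, 8.25 and 8.41 in DMSO_pooled cells. The groups did not overlap, and the difference was 1.37 ± 0.07 (adjusted p = 2.0e-08). MDM2, the ligase that degrades p53, rose by 0.96 ± 0.11 and GDF15, a secreted stress cytokine, by 1.18 ± 0.15. TP53INP1, a p53 cofactor, rose by 1.56 ± 0.12 (not called with its probe sets averaged, at 0.56) and ANKRA2, an ankyrin protein, by 1.41 ± 0.09. SERTAD1, a CDK4-binding protein, rose by 1.81 ± 0.13 and PRKAB1, a subunit of AMPK, by 1.67 ± 0.10. PLK2, a polo-like kinase, fell by 1.05. SFN, the 14-3-3 sigma protein that is a p53 target in epithelial cells, rose by 2.72 ± 0.25, with values of 8.71, 9.04 and 9.53 in GAD-treated cells and 5.50, 6.27 and 7.20 in DMSO_pooled cells. Genes of p53 and damage signalling gave 4 higher and 3 lower of 24 (16.7% and 12.5%), near the 11.1% and 15% of all tested genes. TOPBP1, an activator of ATR, rose by 0.62 ± 0.08 and RAD17, a clamp loader, by 0.65 ± 0.07, while the phosphatase CDC25B fell by 1.21 and the kinase WEE1 by 0.74. Averaged over probe sets CDKN1A rose by 0.70, while RAD17 was no longer called, at 0.56.

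Mitotic genes fell. Of 52 tested G2/M genes limma called 32 lower and 0 higher, against 15% lower among all tested genes, and the median difference was -0.70. At an unadjusted p under 0.05, 39 were lower and 0 higher. The list mean was 7.89 to 8.76 in GAD-treated cells and 8.80 to 9.42 in DMSO_pooled cells, and the groups stood clear of each other by a narrow margin. KIF20A, a kinesin of cytokinesis, had lowest, median and highest values of 6.23, 7.16 and 7.83 in GAD-treated cells and 8.57, 8.94 and 9.34 in DMSO_pooled cells and fell by 1.85 (adjusted p = 1.7e-05). CENPA, the centromeric histone, had values of 6.22, 7.12 and 7.85 in GAD-treated cells and 8.39, 8.75 and 9.37 in DMSO_pooled cells and fell by 1.72. CDCA3, a trigger of mitotic entry, fell by 1.6 and DLGAP5, a spindle protein, by 1.59. MKI67, the proliferation marker, fell by 0.90, and CCNB1, the mitotic cyclin, by 0.87 with overlapping groups. Its partner kinase CDK1 did not pass, at -0.05 ± 0.12 (adjusted p = 0.72).

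Genes of G1/S and replication were mixed, with 3 higher and 8 lower of 49 and a median of -0.08. ORC6, an origin-binding protein, rose by 1.07 ± 0.16 and cyclin CCNE1 by 1.05 ± 0.19. CCNE1 had overlapping groups and no call over its averaged probe sets, at 0.54. CCNE2, the other E cyclin, was called higher at 0.79 ± 0.27 (adjusted p = 0.023). Its call was lost without the library labelled DMSO_pooled replicate 4, at 0.67, replicate 5, at 0.71, or replicate 6, at 0.63, and in the fit of 7 groups (adjusted p = 0.18). MCM7, a helicase subunit, fell by 1.67 and POLA1, the catalytic subunit of DNA polymerase alpha, by 1.40, while MCM2 stood at -0.23 ± 0.09. Among the inhibitors of cyclin-dependent kinases p21 rose, but CDKN1B, which encodes p27, fell by 1.54 and CDKN2D, which encodes p19, by 1.12. The values of CDKN1B were 6.43, 6.82 and 7.05 in GAD-treated cells and 7.99, 8.33 and 8.56 in DMSO_pooled cells. CDK6 fell by 1.47 and CCND2 rose by 1.30 ± 0.16 (0.70 over averaged probe sets). The regulators CCND1, at -0.06 ± 0.13, and MYC, at -0.05 ± 0.14, did not pass the test (adjusted p = 0.7 and 0.75).

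The CHR element was looked for as TTTGAA on both strands. It was present in 9.81% of all 9494 windows, in 12% of the windows of genes called lower and in 10.6% of those of genes called higher. Among the G2/M genes 32 of 44 windows held it, of which 20 were called lower, and 8 of 12 without it were called lower too. The letters CCAAT, bound by NF-Y, which may overlap ERSE, were in 37.1% of all windows and in 35 of 44 windows of the G2/M list. CENPA and DLGAP5 are shown as falling genes with the element.
CENPA promoter, chr2:26785806-26786055, + strand: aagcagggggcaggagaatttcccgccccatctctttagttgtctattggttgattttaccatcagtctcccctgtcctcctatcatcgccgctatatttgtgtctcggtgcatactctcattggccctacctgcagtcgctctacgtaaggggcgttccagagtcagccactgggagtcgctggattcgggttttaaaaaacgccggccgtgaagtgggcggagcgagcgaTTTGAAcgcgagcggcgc
DLGAP5 promoter, chr14:55191586-55191835, - strand: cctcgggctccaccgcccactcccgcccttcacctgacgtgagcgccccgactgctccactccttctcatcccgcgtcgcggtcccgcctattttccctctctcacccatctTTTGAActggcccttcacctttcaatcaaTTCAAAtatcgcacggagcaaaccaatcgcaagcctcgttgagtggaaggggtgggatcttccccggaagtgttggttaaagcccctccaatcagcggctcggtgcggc

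Genes of the extracellular matrix fell more than any other list of 20 or more members. Of 30 tested collagens and matrix proteins 21 were called lower and 1 higher, with a median difference of -0.95. Their mean level was 7.45 to 7.76 in GAD-treated cells and 8.44 to 8.97 in DMSO_pooled cells. COL1A1, the main chain of type I collagen, had lowest, median and highest values of 3.82, 4.73 and 5.97 in GAD-treated cells and 6.43, 7.89 and 8.45 in DMSO_pooled cells and fell by 3.02 (adjusted p = 1.2e-05). The 3 probe sets of COL1A1 above 4 differed widely, from -3.02 to -0.20, and the average over its probe sets was -0.81, still called. THBS1 and THBS2, thrombospondins of the matrix, fell by 2.45 and 2.28, FBN1, the microfibril protein fibrillin, by 2.16, and COL13A1, a transmembrane collagen, by 2.21. VCAN, the proteoglycan versican, fell by 3.42 and FN1, fibronectin, by 0.70. TGFB2, a ligand that drives matrix genes, had values of 4.62, 5.51 and 6.65 in GAD-treated cells and 8.44, 9.33 and 9.66 in DMSO_pooled cells and fell by 3.59 (adjusted p = 4.4e-07), with an average of -2.22 over its probe sets. In the TGF-beta and BMP list 13 of 31 were lower and 1 was higher. The co-receptor TGFBR3, at 4.02 in GAD-treated cells and 6.80 in DMSO_pooled cells, the latent binding protein LTBP1 and the ligand BMP6 fell, LTBP1 by 2.44 and BMP6 by 1.68, the BMP6 call being lost with averaged probe sets, at -0.56. TGFBR3 had a GAD mean close to 4. INHBE, an activin subunit that is also induced by stress, was the member called higher, at least 2.53-fold. Proteases and their inhibitors gave 3 higher and 5 lower of 19 (15.8% and 26.3%), against 11.1% and 15% of all tested genes. PLAT, the tissue plasminogen activator, had values of 6.19, 7.78 and 9.32 in GAD-treated cells and 10.25, 11.18 and 11.36 in DMSO_pooled cells and fell by 3.41, PLAU, the urokinase, fell by 1.31 and MMP2, a gelatinase, by 1.03. MMP2 was not called with its probe sets averaged, at -0.35. TIMP3, an inhibitor of metalloproteases, was at least 4.56-fold lower in GAD-treated cells, whose mean was under 4.

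Targets of YAP and SRF, which respond to tension in the cytoskeleton, gave 3 higher and 9 lower of 28. CCN2, a matricellular growth factor, fell by 0.71, while its relative CCN1 stood at 0.04 ± 0.10 (adjusted p = 0.75). TPM1, a tropomyosin, fell by 1.6 and VCL, the adhesion protein vinculin, by 0.89, but VCL lost its call with averaged probe sets, at -0.46. TAGLN, an actin-binding protein, and ANKRD1, a nuclear mechanosensor, rose by 1.51 ± 0.42 and 1.14 ± 0.23, each with overlapping groups.

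Interferon-stimulated genes were lower at a low level of expression. Of 24 tested genes limma called 12 lower and 0 higher, and at an unadjusted p under 0.05 there were 15 lower and 1 higher. The median difference was -0.55, and the list mean was 5.24 to 5.44 in GAD-treated cells and 6.03 to 6.13 in DMSO_pooled cells. PSMB9, an immunoproteasome subunit, had lowest, median and highest values of 5.03, 5.19 and 5.45 in GAD-treated cells and 7.31, 7.71 and 7.95 in DMSO_pooled cells and fell by 2.41 (adjusted p = 1.6e-08). OAS1, a sensor that activates RNase L, fell by 2.17, IFIH1, the RNA sensor MDA5, by 2.07 and IRF1, an interferon-induced factor, by 1.37. The average for IFIH1 over its probe sets was -0.77. IFIT1, an inhibitor of viral RNA translation, was at least 1.76-fold lower, with a GAD mean under 4. Inflammatory genes of the NF-kB list moved both ways, with 6 higher and 5 lower of 23. IL11, a cytokine of the IL6 family, had values of 10.30, 10.79 and 11.49 in GAD-treated cells and 7.12, 7.68 and 8.08 in DMSO_pooled cells and rose by 3.18 ± 0.22 (adjusted p = 1.1e-07). The neutrophil chemokines CXCL3 and CXCL8 rose by 2.23 ± 0.23 and 1.38 ± 0.26, CXCL8 with overlapping groups. TNFAIP3, the A20 inhibitor of NF-kB, fell by 1.68 and PTGS2, the inducible cyclooxygenase, by 1.57. IL6 was called lower, but its mean was under 4 in GAD-treated cells and 4.32 in DMSO_pooled cells, which bounds it at 1.24-fold lower or more.

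Immediate early genes gave 6 higher and 5 lower of 26. EGR1, a zinc finger factor induced within minutes of many stimuli, had values of 8.19, 9.49 and 10.49 in GAD-treated cells and 4.26, 7.16 and 7.96 in DMSO_pooled cells and rose by 2.79 ± 0.59 (adjusted p = 0.0011), the widest spread among the 15 largest rises. IER5 rose by 0.94 ± 0.12 and JUND, an AP-1 factor, by 0.68 ± 0.10, while KLF2, a zinc finger factor, fell by 1.05 and NR4A2, an orphan nuclear receptor, by 1.16. Feedback genes of ERK gave 3 higher and 4 lower of 20 (15% and 20%), near the shares of all tested genes. The phosphatase DUSP4 fell by 1.37 and the ETS factor ETV1 by 2.22, while the phosphatase DUSP14 rose by 1.04 ± 0.12. Averaged probe sets ended the call of JUND, at 0.38, and gave -0.64 for KLF2 and -1.05 for ETV1. Other genes of the panel were below the filter or were not analysed here.

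Metabolic lists fell in part. Of 34 genes of hypoxia and glycolysis 15 were lower and 1 higher, with a median of -0.52. EPAS1, the HIF2alpha factor, fell by 1.96, ALDOC, an aldolase, by 2.02, CA12, a carbonic anhydrase, by 2.97, and the pyruvate dehydrogenase kinases PDK1 and PDK3 by 1.13 and 1.70. Of 19 cholesterol synthesis genes limma called 9 lower and 0 higher (13 and 0 at an unadjusted p under 0.05), with a median of -0.57, which was -0.41 without the library labelled DMSO_pooled replicate 1. ACAT2, which makes acetoacetyl-CoA, fell by 1.39, PMVK, the phosphomevalonate kinase, by 1.14, LSS, which closes the sterol rings, by 1.00 and INSIG1, which holds SCAP in the endoplasmic reticulum, by 0.88. TXNIP, a glucose-responsive inhibitor of thioredoxin, was called neither way at -0.58 ± 0.37 (adjusted p = 0.2), but GAD was below DMSO_pooled in all 6 pairs of same-numbered samples. With the replicate number as a block its adjusted p was 2.6e-05, at a difference just under 1.5-fold. Without the library labelled DMSO_pooled replicate 1, which leaves GAD replicate 1 unpaired, it was -0.82 and was called. Of 16 circadian genes limma called 8 lower and 0 higher, and 9 were lower and 2 higher at an unadjusted p under 0.05. NPAS2, a partner of BMAL1, had values of 5.37, 5.82 and 6.61 in GAD-treated cells and 7.70, 8.24 and 8.57 in DMSO_pooled cells and fell by 2.42. BHLHE41, a repressor of the clock, fell by 2.20 and NFIL3, a bZIP repressor, by 1.71. With averaged probe sets the circadian list gave 1 higher and 5 lower of 15, LSS lost its call, at -0.43, and EPAS1, CA12 and BHLHE41 stood at -0.81, -1.72 and -1.02. Respiratory chain genes gave 0 higher and 1 lower of 40 by limma. At an unadjusted p under 0.05 they gave 2 higher and 14 lower, the falls being near the share of all tested genes. Ribosomal proteins gave 1 higher and 0 lower of 48, with 6 higher and 0 lower at that p, and 4 higher and 0 lower of 48 with averaged probe sets.

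Several of the largest rises were in genes of no list. MYCT1, a little-studied nuclear protein, was at 6.97, 7.53 and 9.04 in GAD-treated cells and 2.72, 2.99 and 3.17 in DMSO_pooled cells. On its brightest probe set it was at least 13.4-fold higher in GAD-treated cells, a bound given because the DMSO_pooled mean was under 4. IL13RA2, a decoy receptor for IL13, was at 5.99, 6.29 and 6.79 in GAD-treated cells and 2.48, 2.82 and 2.99 in DMSO_pooled cells, at least 5.07-fold higher by the same reckoning. SPANXC, a testis antigen on chromosome X, was at 9.26, 9.54 and 9.88 in GAD-treated cells and 5.03, 5.24 and 5.82 in DMSO_pooled cells and rose by 4.19 ± 0.15 (adjusted p = 5.1e-10). SPANX genes are near-identical, so the copy that rose cannot be told apart. FILIP1, a regulator of filamin, was at least 7.29-fold higher on its brightest probe set and the antisense RNA LURAP1L-AS1 at least 6.78-fold. The 3 probe sets of FILIP1 above 4 ran from 1.02 to 3.36 on the log2 scale. Averages over all probe sets, dim ones included, were 2.52 for FILIP1 and 2.90 for MYCT1, both still called. On the brightest probe set the groups of all of these genes were clear of each other.

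Among the 15 largest falls 12 had a larger SD in GAD-treated cells than in DMSO_pooled cells, and GALNT15, PDE7B and RPS6KA2 had a smaller one. GNG2, a G protein gamma subunit, had lowest, median and highest values of 3.62, 4.55 and 6.42 in GAD-treated cells and 7.97, 8.87 and 9.57 in DMSO_pooled cells and fell by 4.13 (adjusted p = 9.3e-07). SORBS2, an adaptor of actin and adhesion, fell by 3.85, DPYD, the enzyme that degrades pyrimidines, by 3.82, PLXNA4, a semaphorin receptor, by 3.69, and LRRC17, a leucine-rich repeat protein, by 3.64. Averages over probe sets were smaller and still called, at -1.14 for GNG2, -1.76 for SORBS2, -1.38 for DPYD, -2.01 for PLXNA4 and -1.90 for LRRC17. The 6 probe sets of SORBS2 above 4 ran from -3.85 to -1.02. SNAP25, a vesicle fusion protein and the neural marker that reached 4 in DMSO_pooled cells, was at 2.95, 3.24 and 4.58 in GAD-treated cells and 6.13, 7.18 and 7.79 in DMSO_pooled cells. On this probe set it was at least 8.35-fold lower in GAD-treated cells, whose mean was under 4. The 3 probe sets of SNAP25 above 4 ran from -3.65 to -1.98, and the average over all its probe sets was -2.55, still called. TENM4, a teneurin of the cell surface, was at least 7.89-fold lower and SHROOM2, an actin-binding protein, at least 7.75-fold. Of the 15 genes with the largest falls 14 were highest in GAD replicate 2, where they averaged 2.53 below the DMSO_pooled means, against 3.47 to 4.23 below in the other 5 GAD arrays. The 15 largest rises stood at 3.52 to 3.67 above in each of the 6 GAD arrays.

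Many of these falling genes were long. Genomic span, the distance between the start and the end of a gene in GRCh38.p14, was looked at after the data were seen. The median span was 62.9 kb in genes called lower, 25.2 kb in those called higher and 30.6 kb over all tested genes. Genes of 100 kb or more made up 39.3% of those called lower, 7.88% of those called higher and 18.9% of all. Among genes of 20 to 50 kb 10.3% were called lower. This share was 22.5% at 100 to 200 kb, 41.4% at 200 to 500 kb and 63.4% of the 142 genes of 500 kb or more, whose median difference was -0.92. The share stayed higher at each level of expression. Among genes at a DMSO_pooled level of 8 to 10, 48.7% of those of 200 kb or more were lower, against 10.5% of those under 100 kb, and at a level of 10 or more 45.6% against 6.86%. In the collagen list 13 of 18 members under 100 kb were lower, and 8 of 12 longer ones were. Long genes that rose included IL1RAPL1, a synaptic adhesion protein of the X chromosome, by 1.08 ± 0.19, and NAV3, a microtubule-guidance protein, by 0.76 ± 0.12, whose call was lost with averaged probe sets, at 0.38. HDAC9, a histone deacetylase, was higher by 0.94 ± 0.24 on its main probe set, but its other probe sets reached down to -0.89 and their average was -0.04.

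**Figure D4:**
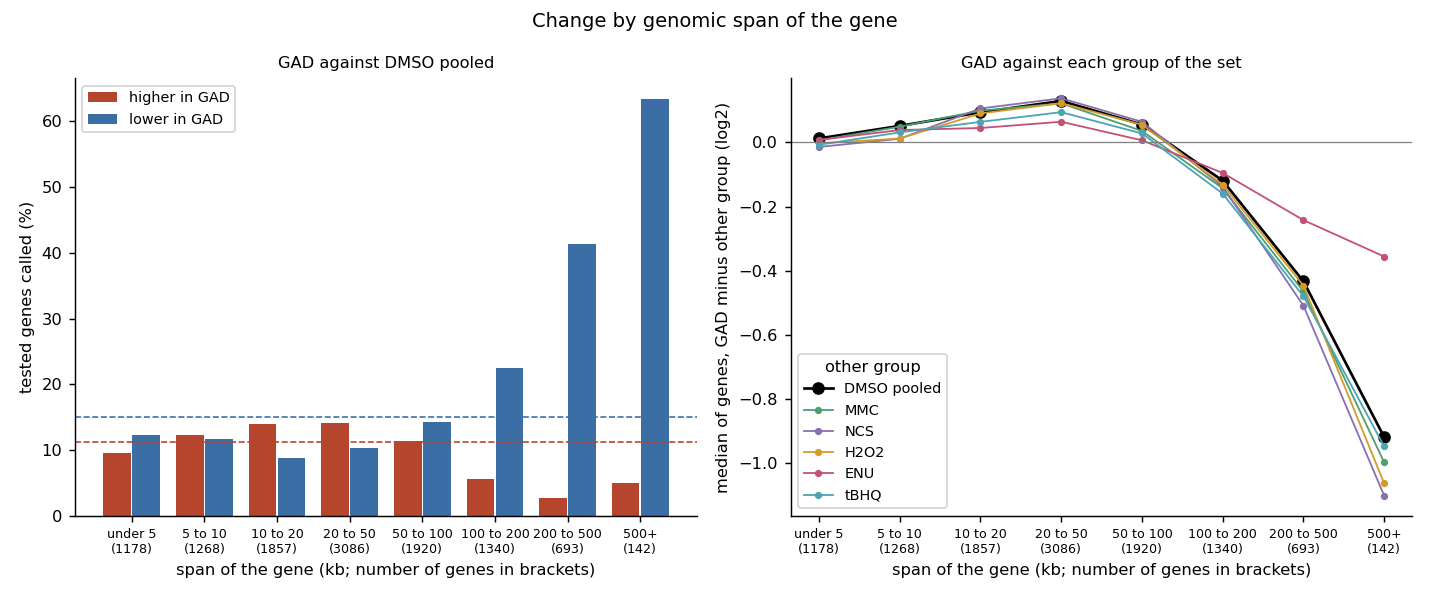
Left, the share of tested genes called higher or lower in GAD-treated cells against DMSO_pooled cells (percent) by genomic span in kb. Right, the median log2 difference of the genes of each span between GAD and each other group of the 7 groups compared. The share called lower is 63.4% at 500 kb or more, and the median at that span lies at -0.92 against DMSO_pooled and at -0.36 against ENU.

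GAD was then set against each of the other compounds in 1 fit of the 7 groups, without reference to DMSO_pooled. Of 11496 tested genes 27.4% were called between GAD and MMC, 29.6% between GAD and NCS, 26.0% between GAD and H2O2, 19.3% between GAD and ENU and 25.7% between GAD and tBHQ. Genes higher in GAD than in all 5 compounds numbered 297 (2.58%) and genes lower than in all 5 numbered 742 (6.45%). GAD and ENU were both used at 2 mM, the other doses differ, and each was picked for p53 protein, so these are contrasts at those doses.

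The NRF2 list set GAD and tBHQ apart from the rest. Its mean level was 9.45 to 9.66 with GAD, 8.18 to 8.32 with MMC, 8.21 to 8.31 with NCS, 8.25 to 8.71 with H2O2, 8.44 to 9.04 with ENU and 9.69 to 9.99 with tBHQ. None of its 32 genes was higher or lower in GAD than in all 5 compounds. AKR1C1 averaged 11.21 with GAD and 11.41 with tBHQ, a difference of -0.20 ± 0.37 (adjusted p = 0.67). HMOX1 was lower with GAD than with tBHQ, at 9.78 against 11.64, a difference of -1.86 ± 0.23 (adjusted p = 9.6e-09). The ATF4 list had 8 members higher in GAD than in all 5 compounds and 1 lower, against 2.58% and 6.45% of all tested genes. The mean level of the ATF4 list was 8.37 to 8.49 with GAD and 8.05 to 8.37 with tBHQ, so these ranges met. It was 7.71 to 8.07 with ENU, 7.27 to 7.79 with MMC, 7.13 to 7.50 with NCS and 7.22 to 7.88 with H2O2. The median GAD minus tBHQ difference over the list was 0.25. ATF3, a single member, averaged 8.20 with GAD and 8.26 with ENU, against 5.73 with tBHQ. NUPR1 was higher with GAD than with each of the 5, by 1.59 ± 0.25 against ENU and 2.26 ± 0.25 against tBHQ.

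**Figure D5:**
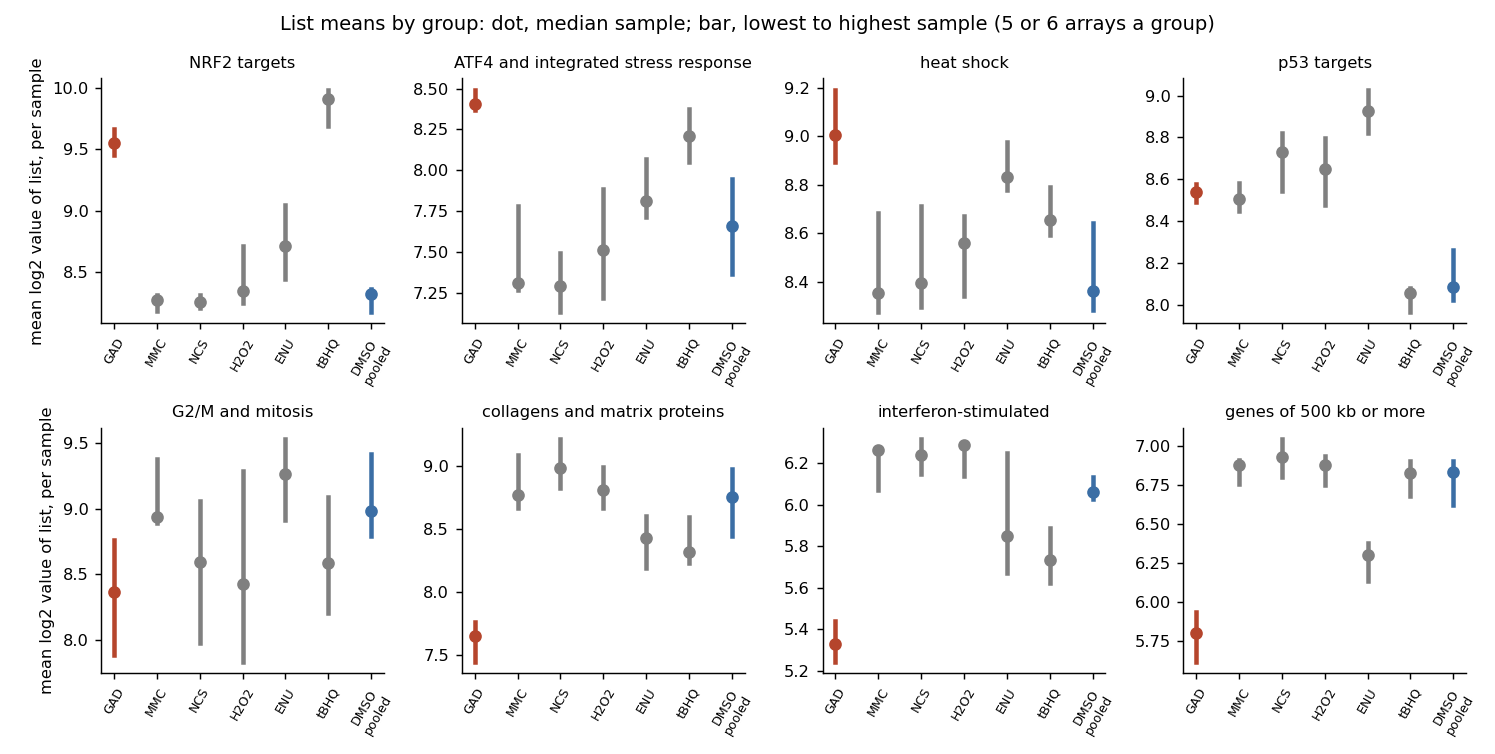
Mean log2 level of 8 gene lists in each of 7 groups, with the median sample as a dot and the lowest to highest sample as a bar. GAD lies near tBHQ and above the other groups for the NRF2 targets, near MMC for the p53 targets and below the other groups for the collagens.

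For the p53 targets the level with GAD overlapped with those of MMC, NCS and H2O2, and lay below that of ENU and above that of tBHQ. The list mean was 8.49 to 8.58 with GAD, 8.45 to 8.58 with MMC, 8.55 to 8.82 with NCS, 8.48 to 8.79 with H2O2, 8.82 to 9.03 with ENU and 7.97 to 8.08 with tBHQ. The median GAD minus compound difference over the list was 0.09 for MMC, -0.29 for ENU and 0.38 for tBHQ. CDKN1A averaged 9.60 with GAD and 8.57 with tBHQ, a difference of 1.03 ± 0.09 (adjusted p = 6.4e-12).

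Falls set GAD apart more often than rises. In the collagen list 13 of 30 members were lower in GAD than in all 5 compounds, and the median difference ranged from -0.64 against ENU and tBHQ to -1.12 against NCS. In the interferon list 6 of 24 were and in the G2/M list 6 of 52, against 6.45% of all tested genes. The interferon list with GAD was closest to that with tBHQ, at a median difference of -0.13, against -0.53 to -0.79 for the other 4 compounds. Its mean level was 5.24 to 5.44 with GAD and 5.62 to 5.89 with tBHQ, against 6.03 to 6.13 in DMSO_pooled cells. The G2/M list mean overlapped with those of NCS, H2O2 and tBHQ, at 7.89 to 8.76 with GAD against 7.98 to 9.06, 7.84 to 9.28 and 8.20 to 9.09. Among the genes most clearly lower in GAD than in all 5 were GNG2, MCC, a colorectal tumour suppressor, VCAN, PTPN22, a tyrosine phosphatase, and NFE2L3, a relative of NRF2. NFE2L3 averaged 5.62 with GAD and 8.76, 8.75, 8.64, 8.17 and 8.19 with MMC, NCS, H2O2, ENU and tBHQ, against 8.75 in DMSO_pooled cells. Long genes were the closest between GAD and ENU, with a median over genes of 500 kb or more of -0.36 against ENU and of -0.95 to -1.10 against the other 4 compounds. DPYD averaged 5.30 with GAD and 7.23 with ENU, against 8.53 with tBHQ and 9.12 in DMSO_pooled cells.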

How the data were processed

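Per the submitters' processing notes the authors summarised the arrays with Partek and GCRMA, with no versions given, and the deposited values are log2 probe set levels. They were used as deposited, since the 12 arrays were alike in their quantiles, with medians from 3.27 to 3.33. Arrays carry no read depth, and their number limits the precision. No deposited value column went unused.

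The platform annotation gave 1 gene to 40914 of 54613 probe sets, array controls aside. The probe set brightest on average in the 101 arrays stood for each of 19774 genes, and a gene was tested where any of 17 group means was 4 or more. The 2 groups were fitted in limma 3.58.1 (R 4.3.3) with Benjamini-Hochberg adjustment over 11496 genes. Contrasts with other compounds came from 1 fit of 7 groups and 40 arrays. Tabulation and plotting used Python 3.11.15, pandas 2.3.3, numpy 2.4.6 and matplotlib 3.10.9. Gene spans and promoters are those of RefSeq GRCh38.p14.

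The samples, gene lists, named-gene rule, motifs and span bins were chosen with earlier results of these data known. The rule took the 15 largest rises and falls with groups clear of each other, up to 5 called members of a list in its main direction and 3 in the other, a panel of stress and cycle genes, and 6 genes each way set apart from all 5 compounds. PGD and ASNS were added for their promoters, and long genes for their span. Lists are described by counts and medians with no test.

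The replicate numbers were tried as pairs, which the labels do not state. Deviations of same-numbered samples correlated in all 6 pairs, at r from 0.253 to 0.593 over 21754 probe sets. Each GAD array correlated best with the DMSO_pooled array of its own number. DMSO_pooled replicates 2 and 6 correlated better with a GAD array of another number. The fit with the number as a block gave 3022 calls, 3010 of them shared with the fit without it. Alternatives were no filter, a stricter filter at 6, averaged probe sets, all probe sets apart, an equal array median, quantile normalization, 1 fit of 7 groups, trend and robust variances, no fold minimum, the block, and leaving out each replicate. Differences with group means under 4 set to 4, and the span and zinc finger counts, were added after seeing the data.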

Additional observations from a re-analysis of the deposited data

Results flagged for a closer look

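Among 196 groups of 6 arrays checked for a lone high or low sample 9 held one, where chance gives about 5%, or 1 in 20. In GAD-treated cells SNAP25 was 4.58 in replicate 2 (next 3.44), CCN2 was 10.59 in replicate 6 (next 10.99), and the mean of the glutathione list was 8.66 in replicate 3 (next 8.57). In DMSO_pooled cells replicate 1 was low for PLAT, at 10.25 (next 10.96), and GDF15, at 10.59 (next 11.23). Replicate 3 was high for LRRC17, at 9.26 (next 8.70), and BICC1, at 9.07 (next 8.46), and low for the mean of the apoptosis list, at 7.18 (next 7.32). Replicate 6 was low for NMRAL2P, at 3.68 (next 3.80). Each of these genes kept its call when that replicate was left out.

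Probe sets with no gene in the annotation used here also carried a signal. Of 3867 that reached a group mean of 4, 679 were called higher and 346 lower in GAD-treated cells against DMSO_pooled cells. Among the 11496 tested genes 1281 were higher (11.1%) and 1730 lower (15%). Those genes are each read by their brightest probe set, an unlike unit. Whether the probe sets with no gene differ from them was not tested. All probe sets on their own gave 3404 higher and 3404 lower. The 3867 probe sets were not assigned to genes.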

How the results depend on the processing

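The count of 3011 called genes was 6808 with every probe set on its own (3404 higher and 3404 lower) and 7097 with no fold minimum (3770 and 3327), and under the other alternatives that kept all 12 arrays it lay between 2284, with averaged probe sets, and 3059, with an equal array median. The replicate block gave 3022. Leaving out 1 replicate gave 2902 to 3155 calls, 1230 to 1378 higher and 1672 to 1777 lower. HDAC9 reversed to -0.036 with the mean of its probe sets, and the cause was not tested. Of 245 tested named genes 238 were called and 192 of them under each alternative, 38 calls being lost with the mean of probe sets and 13 when a replicate was left out. Medians of the histone, base excision repair, immediate early, ERK, NF-kB, respiratory chain, nucleotide synthesis and AHR lists lay near 0 and changed sign under at least 1 alternative, while those of the other lists kept it. The share of genes of 500 kb or more that were lower ranged from 50.8% to 77.5% over the alternatives. Signals near background limit genes with a group mean under 4, which were 413 of the called genes.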

Other observations

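Zinc finger genes, a family of mostly DNA-binding repressors, rose more often than fell. Of 328 tested genes whose symbol is ZNF with a number, a list chosen after seeing the data, 83 were called higher (25.3%) and 12 lower (3.66%), against 11.1% and 15% of all tested genes. Their mean level was 5.99 to 6.10 in GAD-treated cells and 5.75 to 5.81 in DMSO_pooled cells, so the groups were clear of each other by a small step. ZNF385B, of a family that binds p53, rose by 2.07 ± 0.12, ZNF746, known as PARIS, by 1.31 ± 0.12 and ZNF408 by 1.16 ± 0.13. ZNF365 and ZNF395 fell, by 1.83 and 1.71 on the log2 scale. Among chromatin regulators 7 were higher and 5 lower of 55 (12.7% and 9.09%), against the 11.1% and 15% of all tested genes. KDM7A, a histone demethylase, had lowest, median and highest values of 7.31, 8.06 and 8.72 in GAD-treated cells and 5.59, 5.99 and 6.60 in DMSO_pooled cells and rose by 2.03 ± 0.23 (adjusted p = 6.1e-06 by limma), and SIRT1, a deacetylase, rose by 0.95 ± 0.09. HDAC4, a class II deacetylase, fell by 1.37 and KAT2B, an acetyltransferase, by 1.15. Averaged over probe sets ZNF746, ZNF365, ZNF395, HDAC4 and KAT2B stood at 0.68, -0.94, -1.0, -0.74 and -0.60, and the chromatin list gave 4 higher and 3 lower of 54.

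In each of the 4 DNA repair lists the share called, both ways together, was below the 26.2% of all tested genes. The shares called lower were 0% to 9.09%, against 15%, and those called higher 11.1% to 19.0%, against 11.1%. The list of mismatch repair, MGMT and translesion synthesis gave 4 higher and 0 lower of 21. Its mean level was 8.16 to 8.29 in GAD-treated cells and 7.97 to 8.06 in DMSO_pooled cells. Of 29 genes of homologous recombination and the Fanconi pathway 5 were higher and 2 lower, with RAD50, of the MRN complex, up by 1.09 ± 0.09 and BRCA1 up by 0.77 ± 0.14. XPC, the damage sensor of nucleotide excision repair, had values of 8.54, 8.82 and 9.22 in GAD-treated cells and 7.73, 7.81 and 7.91 in DMSO_pooled cells and rose by 1.04 ± 0.10, in a list with 3 higher and 2 lower of 22. RAD18, the ligase of translesion synthesis, rose by 0.96 ± 0.10, and the glycosylase NTHL1 of base excision repair fell by 1.07. Ribosome biogenesis genes gave 8 higher and 0 lower of 50 by limma, and 34 higher and 8 lower at an unadjusted p under 0.05, with DDX52, a helicase, up by 1.17 ± 0.11 and UTP15, a part of the small-subunit processome, up by 1.08 ± 0.17. Apoptosis genes gave 5 higher and 4 lower of 27 (18.5% and 14.8%), against 11.1% and 15% of all tested genes. Members of the TNF receptor superfamily moved apart, TNFRSF12A, which binds TWEAK, up by 0.96 ± 0.07 and TNFRSF21 down, at -1.88 ± 0.11. BCL2L1, an inhibitor of apoptosis, rose by 0.77 ± 0.14, and its relative BCL2 was at least 1.96-fold lower in GAD-treated cells, whose mean was under 4. With averaged probe sets BCL2L1 was not called, at 0.55, and DDX52 stood at 0.69. The apoptosis list then gave 4 higher and 1 lower of 25, the recombination list 5 higher and 1 lower of 27 and the nucleotide excision list 2 higher and 1 lower of 22.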
